A study of Mus musculus with 10 samples.

Results

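The Wnt pathway was described in normal mouse cholangiocytes (the NMC line, epithelial cells of the bile duct) grown in a laminin-rich matrix or in collagen I. Its members were 59 of the 18407 genes of the deposited count table. They were 19 genes of the Wnt ligand series, 9 Frizzled receptor genes, and a list of co-receptors, R-spondin receptors, destruction complex genes, TCF/LEF factors and inhibitors. They were found by a rule on gene symbols, with no threshold on measured values. The cells were cultured for 6 days as 3D double spheroids, 5 libraries in laminin mixed with collagen I at 3:1 by volume and 5 in collagen I alone at 1 mg/mL. No other agent was applied, every library comes from the same unmodified cell line, and the labels do not say how the cultures were divided. P-values therefore measure the spread between these samples.

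Wnt proteins are lipid-modified secreted ligands that bind Frizzled receptors. In the canonical branch, Wnt joins Frizzled to the co-receptor LRP5 or LRP6, Dishevelled is recruited, and the complex of AXIN, APC and GSK3 stops marking beta-catenin for destruction. Beta-catenin then acts with TCF/LEF factors on target genes, several of which, Axin2, Lgr5, Rnf43 and Znrf3 among them, feed back on the pathway. In the liver, Wnt signalling is best known for its part in hepatocyte zonation and in the growth of duct-derived progenitors.

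Total counts ran from 4424725 to 8129979 per library, and levels are given as CPM, read counts scaled by TMM library sizes. A library without a count can still hold up to 3 counts' worth, which was 0.365 to 0.691 CPM. Such limits cover counting error only. Of 12 cholangiocyte markers 11 averaged 1 CPM or more, led by Krt19, with sums of 2713 to 3327 CPM in laminin-rich and 2444 to 3278 CPM in collagen I libraries. The 10 hepatocyte markers, of which 5 averaged 1 CPM or more and Cyp2e1 was at 0, summed to 136 to 193 CPM in laminin-rich and 89.2 to 137 CPM in collagen I libraries, and their part in the results below was not tested. Markers of endothelial cells summed to at most 2.72 CPM and those of leukocytes to at most 8.55 CPM in any library. In bulk RNA, fewer cells that express a gene and less of its RNA per cell cannot be told apart.

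Axin2 and Lef1, a canonical target and a factor that acts on such targets, are described further on, with differences of opposite sign that were not called. The sequence before 1 start of each is shown, and its part in those differences was not tested. The set of RefSeq promoter sequences used held starts for 43 of the 59 members (52 starts, build GRCm38.p6), and none for Lgr5. The core of the TCF/LEF motif, CTTTGA on either strand, lay in the 250 bases before 8 of those 52 starts, or 15.4%, against 13.8% of all 32851 starts. Axin2 has 1 listed start, and the window before it, chr11:108920099-108920348 on the plus strand, held no match. Of the 4 starts listed for Lef1, the one inside the gene, preceded by chr3:131156044-131156293 on the plus strand, held 2 matches, 180 and 120 bases before the start, and the windows before the other 3 held none. For Lef1 the window with the matches is shown. Capitals mark the core, here on the minus strand, so that it reads TCAAAG.
Axin2: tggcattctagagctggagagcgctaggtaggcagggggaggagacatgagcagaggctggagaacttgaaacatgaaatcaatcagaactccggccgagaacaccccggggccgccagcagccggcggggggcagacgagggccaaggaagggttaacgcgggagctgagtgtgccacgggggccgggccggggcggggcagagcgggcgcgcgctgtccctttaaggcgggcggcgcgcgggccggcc
Lef1: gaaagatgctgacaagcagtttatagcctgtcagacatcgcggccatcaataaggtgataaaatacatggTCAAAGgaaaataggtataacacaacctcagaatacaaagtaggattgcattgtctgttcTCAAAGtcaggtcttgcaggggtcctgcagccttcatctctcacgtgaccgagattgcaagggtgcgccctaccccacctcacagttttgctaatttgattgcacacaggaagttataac
The other members with a match were Dkk1, Fzd1, Gsk3a, Gsk3b, Ror1, Wnt11 and Wnt5b, and a match describes letters only.

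None of the 31 members that passed the filter on low counts changed between the matrices in edgeR's quasi-likelihood test at an adjusted p of 0.05, while 16 of all 10789 genes tested did, or 0.148%. DESeq2 and limma-voom also called 0 members. At an unadjusted p under 0.05 there were 4 members, 3 higher and 1 lower in the laminin-rich matrix, which is 12.9% against 11.7% of all genes. The median log2 difference (laminin-rich minus collagen I) was 0.07 over the members and 0.01 over all genes, with 20 members above 0 and 11 below. The log2 CPM ranges of the matrices overlapped for every one of the 31, and they were apart in 3.23% of all genes. With 31 members, 0 cannot be told apart from that share. Their adjusted p ran from 0.342 to 0.997. The 4 members were Lgr4, Fzd5, Fzd8 and Wnt9a. As the plot of differences shows, the interval was widest for Lgr5, whose standard error was 0.59, and next widest for Wnt7b at 0.49.

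**Figure D1:**
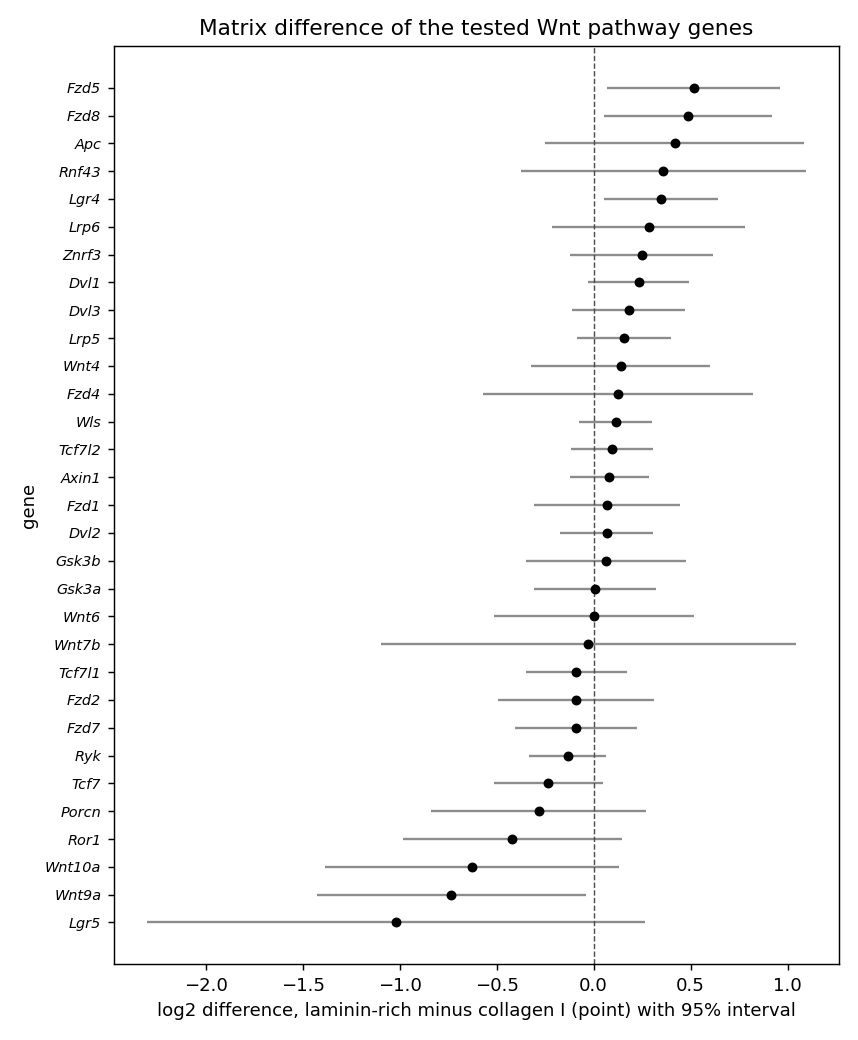
The log2 difference between the laminin-rich matrix and collagen I is plotted on the x axis for the 31 tested members, sorted by size, with a 95% interval from edgeR (n = 5 libraries per matrix). Points run from -1.02 for Lgr5 to 0.52 for Fzd5, and the intervals that leave out 0 are those of Fzd5, Fzd8, Lgr4 and Wnt9a.

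Of the 19 ligands, 5 passed the filter. Ordered by CPM per kb of the longest transcript, averaged over all libraries, they were Wnt10a at 9.67, Wnt4 at 5.36, Wnt7b at 3.99, Wnt6 at 2.77 and Wnt9a at 0.545. Neighbours in this order had library ranges that overlapped, except Wnt6 and Wnt9a. The spread between libraries was wide for Wnt10a and Wnt7b in particular.

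Wnt10a, a canonical ligand known for its part in skin appendages and teeth, stood at 24.8, 7.08, 20.8, 17.8 and 22.8 CPM in laminin-rich replicates 1 to 5, against 11.6, 27.7, 24.4, 45.6 and 36.1 CPM in collagen I replicates 1 to 5. The groups overlapped, and laminin-rich replicate 2 and collagen I replicate 1 were the lowest of their groups. The log2 difference was -0.63 (SE 0.35, edgeR quasi-likelihood adjusted p = 0.516). Wnt9a, a ligand known from joint formation, stood at 1.96, 0.726, 1.92, 0.899 and 1.15 CPM in the laminin-rich libraries, against 1.98, 1.79, 2.19, 3.26 and 2.25 CPM in the collagen I libraries. In 3 laminin-rich libraries Wnt9a lay below every collagen I library, and the other two lay within the collagen I range. Its log2 difference was -0.73 (SE 0.32, unadjusted p = 0.0405, adjusted p = 0.400 in edgeR).

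Wnt7b, a ligand made by many epithelia, stood at 35.4 CPM in laminin-rich replicate 1 and at 4.65 to 11.5 CPM in the other laminin-rich libraries, against 6.78, 12.0, 10.9, 21.4 and 18.1 CPM in the collagen I libraries. The highest library and the lowest were thus both laminin-rich. Exons of Wnt7b overlap AU022754 on the opposite strand, and whether counting used the strand is not stated. Wnt4, a ligand of kidney and female tract development, averaged 23.5 ± 5.57 CPM in the laminin-rich matrix and 21.5 ± 6.24 CPM in collagen I (SD, n = 5 each). Wnt6 averaged 5.76 ± 1.61 CPM in the laminin-rich matrix and 5.73 ± 1.44 CPM in collagen I (SD, n = 5 each).

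**Figure D2:**
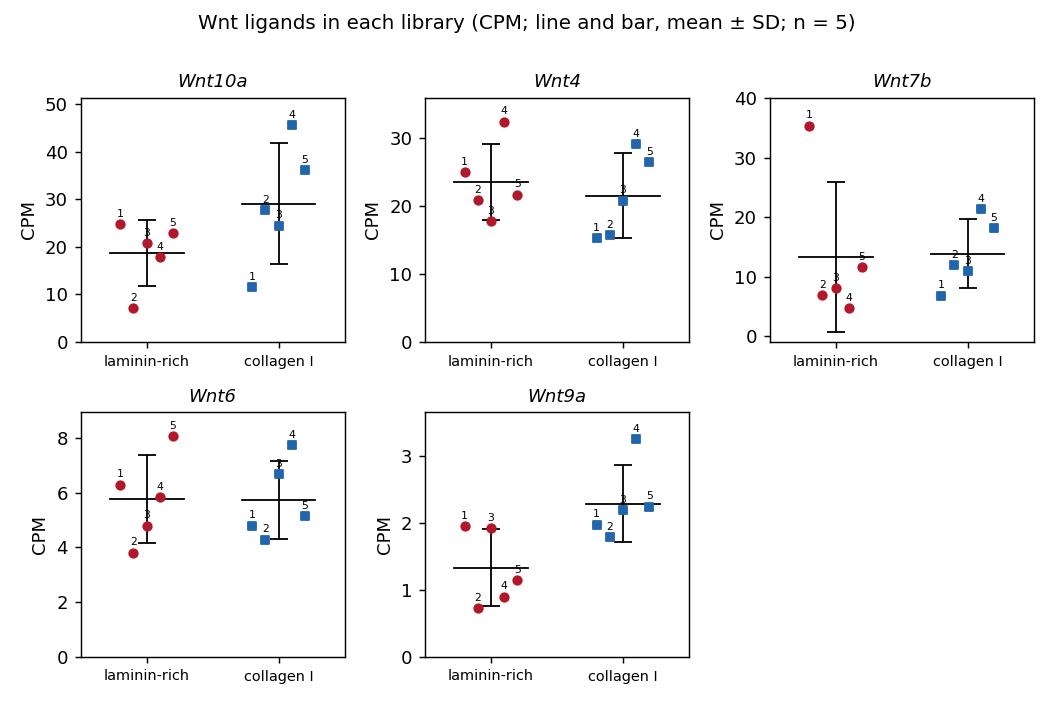
CPM of the 5 tested Wnt ligands is plotted for each library, numbered by replicate, with the laminin-rich matrix left of collagen I and lines and bars for the mean and SD of 5 libraries. Wnt7b in laminin-rich replicate 1 stands at 35.4 CPM, above all other libraries, and the groups overlap for each ligand.

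The other 14 ligands were below the filter. Wnt2b, Wnt3a, Wnt5a, Wnt8a, Wnt8b and Wnt9b had no count in any library, which allows up to 0.100 CPM over the 5 laminin-rich and 0.0936 CPM over the 5 collagen I libraries. Wnt1, Wnt2, Wnt10b and Wnt11 reached at most 5 counts in any library, Wnt5b and Wnt7a at most 3, and Wnt3 and Wnt16 a single count. Wnt5a, Wnt5b and Wnt11 are known for signalling without beta-catenin, and none of these 3 was detected above 5 counts.

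Of the genes that make the ligand ready for export, Wls, the carrier that takes lipid-modified Wnt to the cell surface, was among the highest members. It stood at 329, 299, 305, 349 and 308 CPM in laminin-rich replicates 1 to 5, against 316, 289, 309, 282 and 274 CPM in collagen I replicates 1 to 5. Per kb, Wls lay above 92.3% of the genes tested, and its log2 difference was 0.11 (SE 0.09, 95% interval -0.08 to 0.30, adjusted p = 0.656 in edgeR). Porcn, the acyltransferase that attaches the lipid, averaged 10.2 ± 4.65 CPM in the laminin-rich matrix and 12.5 ± 1.80 CPM in collagen I (SD, n = 5 each). Laminin-rich replicate 1, the library highest in Wnt7b, was also highest in Porcn at 18.1 CPM.

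**Figure D3:**
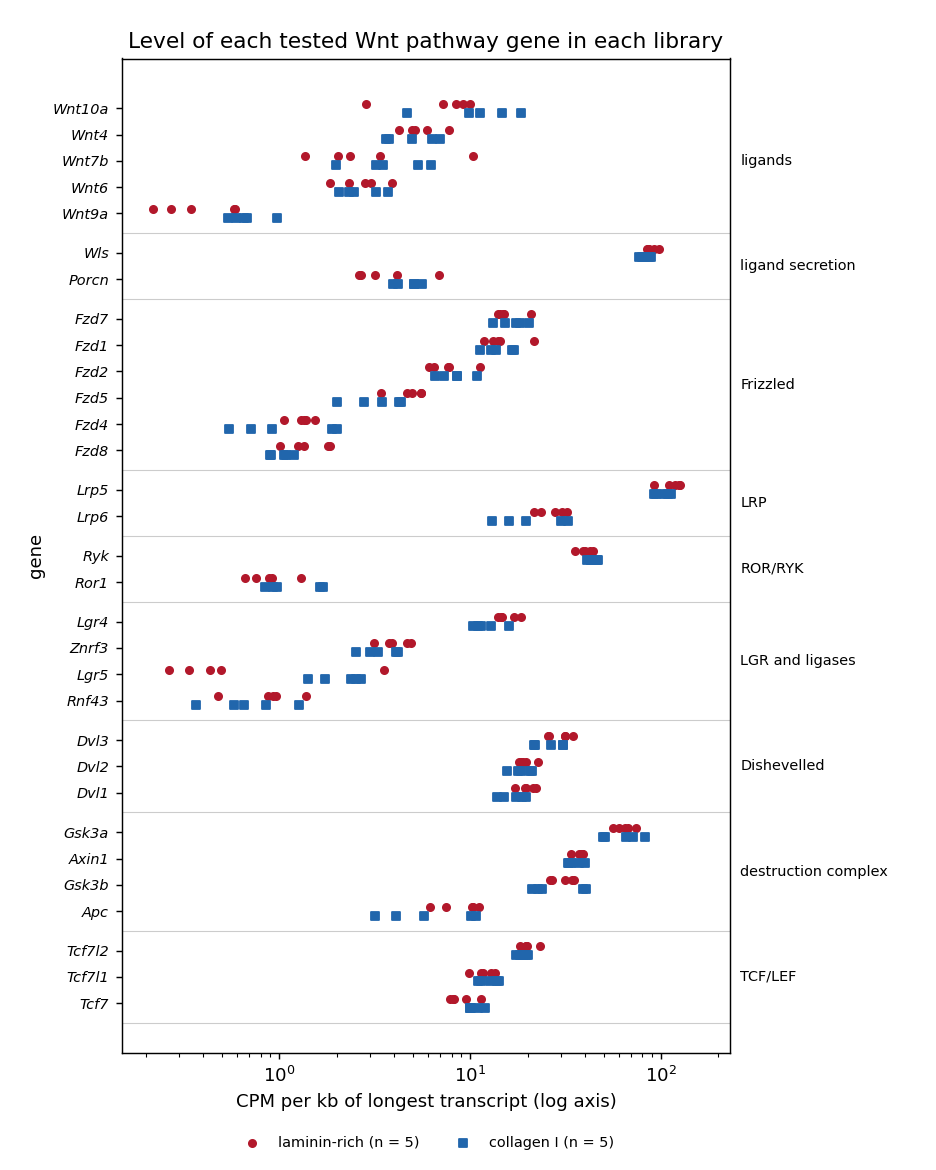
CPM per kb of the longest transcript (log axis) is plotted for each of the 31 tested members in each library, grouped by role, with laminin-rich libraries drawn just above collagen I libraries (n = 5 each). Lrp5 and Wls lie highest, with means of 108 and 86.0 CPM per kb, and the 5 ligands have means of 0.545 to 9.67.

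Of the 9 Frizzled genes analysed, 6 were tested. Per kb, averaged over all libraries, the order was Fzd7 at 16.4, Fzd1 at 14.7, Fzd2 at 8.12, Fzd5 at 4.09, Fzd4 at 1.27 and Fzd8 at 1.24 CPM. Neighbours in this order overlapped in their library ranges, except Fzd2 and Fzd5. Fzd3 and Fzd10 had no count in any library, with the same limits as above, and Fzd9 had at most 5 counts.

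Fzd7, a receptor linked to stem cell compartments of gut epithelium, stood at 67.5, 68.7, 64.9, 94.6 and 63.8 CPM in laminin-rich replicates 1 to 5, against 91.9, 79.3, 82.7, 59.6 and 69.0 CPM in collagen I replicates 1 to 5. The groups overlapped, and laminin-rich replicate 4 stood above the rest of its group. The log2 difference was -0.09 (SE 0.15, 95% interval -0.40 to 0.22, adjusted p = 0.858 in edgeR). In the same library Fzd1 stood at 91.3 CPM and Fzd2 at 41.5 CPM, each the highest of the 10 libraries. Fzd1 averaged 63.1 ± 16.3 CPM in the laminin-rich matrix and 60.0 ± 10.4 CPM in collagen I, while Fzd2 averaged 28.8 ± 7.57 CPM in the laminin-rich matrix and 30.6 ± 6.07 CPM in collagen I (SD, n = 5 each).

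Fzd5, a receptor needed for Paneth cell maturation in the mouse gut, stood at 23.5, 38.1, 34.5, 38.2 and 32.5 CPM in the laminin-rich libraries, against 29.9, 29.3, 23.8, 13.8 and 19.3 CPM in the collagen I libraries. In 4 of the laminin-rich libraries it lay above all 5 collagen I libraries, and laminin-rich replicate 1 lay within them. The log2 difference was 0.52 (SE 0.21, unadjusted p = 0.0265, adjusted p = 0.348 in edgeR). After a trend fitted to length and GC content of transcripts was taken out it was 0.34 (adjusted p = 0.273 in edgeR). Exons of Fzd5 overlap Gm38058 on the opposite strand. Fzd4, which also receives norrin, averaged 8.93 ± 1.18 CPM in the laminin-rich matrix and 8.19 ± 4.61 CPM in collagen I (SD, n = 5 each). Fzd8, a close relative of Fzd5, stood at 6.02, 11.1, 7.51, 8.09 and 10.8 CPM in the laminin-rich libraries, against 6.50, 5.36, 6.32, 7.12 and 5.45 CPM in the collagen I libraries. Of the laminin-rich libraries, replicate 1 alone lay within the collagen I range. Its log2 difference was 0.49 (SE 0.20, unadjusted p = 0.0298, adjusted p = 0.361 in edgeR).

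The LRP co-receptors were unequal in level. Lrp5 stood at 1124, 1111, 814, 979 and 1051 CPM in laminin-rich replicates 1 to 5, against 925, 822, 1008, 836 and 968 CPM in collagen I replicates 1 to 5. The groups overlapped, with the lowest library in the laminin-rich matrix. Its log2 difference was 0.16 (SE 0.11, 95% interval -0.09 to 0.40, adjusted p = 0.631 in edgeR), and -0.12 with the trend on length and GC content taken out (adjusted p = 0.756). Per kb, Lrp5 averaged 108 CPM, above 94.6% of tested genes, and Lrp6 24.7 CPM, with library ranges that did not overlap. Lrp6 averaged 254 ± 41.4 CPM in the laminin-rich matrix and 208 ± 80.5 CPM in collagen I (SD, n = 5 each).

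Among receptors that act outside the LRP route, Ryk, a catalytically inactive tyrosine kinase-like Wnt receptor, stood at 135, 123, 109, 119 and 131 CPM in the laminin-rich libraries, against 133, 144, 126, 133 and 142 CPM in the collagen I libraries. The groups overlapped, and the log2 difference was -0.13 (SE 0.09, adjusted p = 0.615 in edgeR). Ror1, a WNT5A receptor, averaged 5.22 ± 1.40 CPM in the laminin-rich matrix and 7.03 ± 2.40 CPM in collagen I (SD, n = 5 each). Its relative Ror2 was below the filter, with 1 to 13 counts per library.

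The largest matrix difference among the 31 tested members was that of Lgr5, a receptor for R-spondins, marker of cycling intestinal stem cells and target of the canonical branch. The gene lies on chr10:115450311-115587780 of GRCm38, on the minus strand. Lgr5 stood at 2.38, 1.27, 2.08, 17.1 and 1.61 CPM in laminin-rich replicates 1 to 5, against 8.33, 12.9, 6.81, 11.4 and 12.2 CPM in collagen I replicates 1 to 5. In 4 laminin-rich libraries it lay below all 5 collagen I libraries, and laminin-rich replicate 4 lay above all of them. With all 10 libraries the log2 difference was -1.02 (SE 0.59, 95% interval -2.30 to 0.26, adjusted p = 0.534 in edgeR), and Lgr5 was not called. Laminin-rich replicate 4 is singled out here by its own Lgr5 value, so a fit without it follows the value under test. Without laminin-rich replicate 4, the other laminin-rich libraries averaged 1.84 ± 0.491 CPM (SD, n = 4), the log2 difference was -2.46, and Lgr5 passed at an adjusted p of 0.00807 in edgeR. There, 36 of 10809 genes passed, or 0.333%. Without both F libraries (replicates 4 and 5) it was -2.41 (adjusted p = 0.0456 in edgeR), where 0.0459% of all genes passed. Over all 23 alternatives the log2 difference ran from -2.46 to -0.09 and the adjusted p from 0.00807 to 1.00 (edgeR, DESeq2 or limma-voom). Laminin-rich replicate 4 itself held 9.31 times the mean of the other 4 laminin-rich libraries.

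Axin2, a scaffold of the destruction complex and a widely used readout of canonical signalling, was below the filter, with 4, 2, 3, 19 and 3 counts in laminin-rich replicates 1 to 5 and 8, 14, 11, 5 and 8 counts in collagen I replicates 1 to 5. In CPM this was 0.560, 0.363, 0.480, 2.85 and 0.691 in the laminin-rich libraries, against 1.13, 2.50, 1.34, 1.02 and 1.28 in the collagen I libraries. The order was that of Lgr5, with 4 laminin-rich libraries below all collagen I libraries and replicate 4 above them. In edgeR without the filter the log2 difference was -0.52 (adjusted p = 0.713), and without laminin-rich replicate 4 it was -1.47 (unadjusted p = 0.00365, adjusted p = 0.197). Leaving out other single libraries gave an adjusted p of 0.597 to 0.909 in edgeR. These fits without the filter and without a library were chosen after seeing the data. Exons of Axin2 overlap Gm11670 on the opposite strand.

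Laminin-rich replicate 4 stood apart in some other measures but not in all. It held the highest value of all 10 libraries for 10 of the 31 tested members, against 14.1% of all genes tested. Among the 5 laminin-rich libraries it was the highest for 12 of the 31, against 24.8% of all genes. Both counts include Lgr5, whose value singled out this library, and Fzd1, Fzd2 and Fzd7, described above for it. They describe the library and are not separate support that it stood apart. Of 17 tested genes widely used as beta-catenin targets, 3 were highest of the 5 laminin-rich libraries in replicate 4, against 24.8% of all genes, and 8 in replicate 1, against 21.7%. Of the R-spondin ligands listed, Rspo3 reached 31 counts there, 4.65 CPM, against 0.461 to 1.92 CPM in the other laminin-rich libraries and at most 0.851 CPM in collagen I. Rspo1, Rspo2 and Rspo4 had at most 1 count in any library. The 10 fibroblast and stellate markers, of which 6 averaged 1 CPM or more and Lrat was at 0, summed to 57.4 CPM in that library, against 24.4 to 31.3 CPM in the other laminin-rich and 26.2 to 34.3 CPM in the collagen I libraries. That marker sum was led by Col1a1, at 14.2 ± 9.07 CPM in the laminin-rich matrix and 11.5 ± 2.53 CPM in collagen I (SD, n = 5 each). Exons of Rspo3 overlap Gm48159 on the opposite strand. The part of these differences in the values of Lgr5 and Axin2 was not tested.

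**Figure D4:**
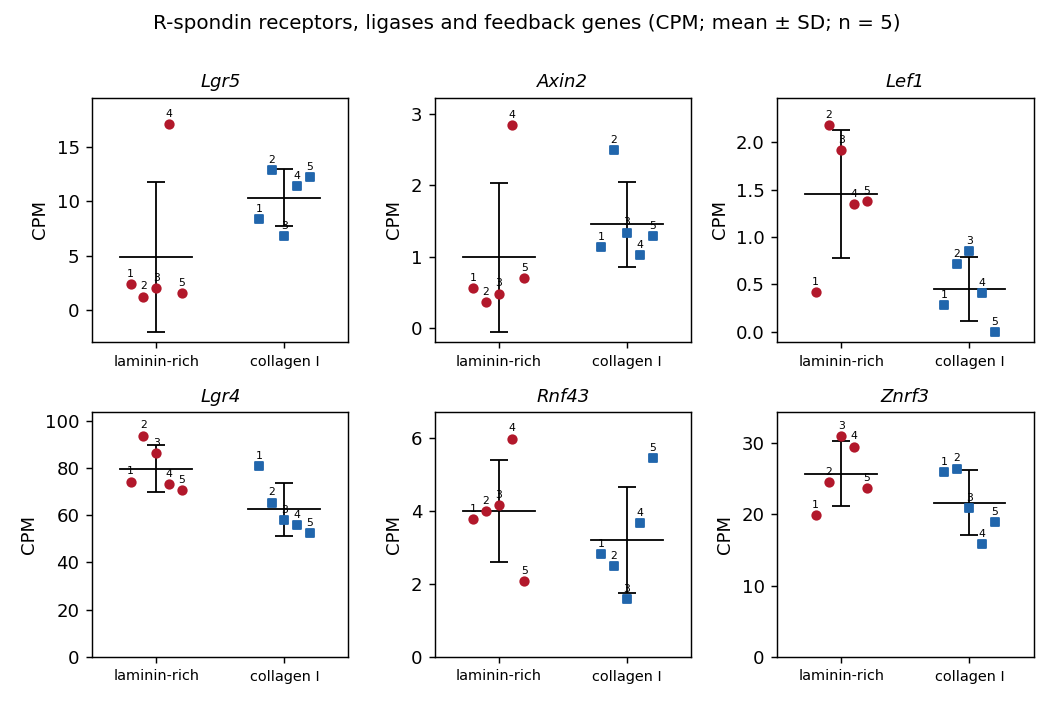
CPM is plotted per library, numbered by replicate, for Lgr5, Axin2, Lef1, Lgr4, Rnf43 and Znrf3, with the laminin-rich matrix left of collagen I and lines and bars for the mean and SD of 5 libraries. Laminin-rich replicate 4 is the highest library for Lgr5 (17.1 CPM) and Axin2 (2.85 CPM), while the other 4 laminin-rich libraries lie below collagen I in both.

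Lgr4, the more broadly expressed R-spondin receptor, had the lowest unadjusted p of the 31 tested members. It stood at 74.2, 93.7, 86.2, 73.3 and 70.5 CPM in the laminin-rich libraries, against 80.9, 65.3, 57.7, 55.8 and 52.5 CPM in the collagen I libraries. Collagen I replicate 1 alone lay within the laminin-rich range. The log2 difference was 0.35 (SE 0.14, unadjusted p = 0.0239, adjusted p = 0.342 in edgeR). Znrf3 and Rnf43, membrane ubiquitin ligases that remove Frizzled receptors from the cell surface, had differences within their spread. Znrf3 averaged 25.7 ± 4.53 CPM in the laminin-rich matrix and 21.6 ± 4.55 CPM in collagen I (SD, n = 5 each). Rnf43 averaged 4.00 ± 1.39 CPM in the laminin-rich matrix and 3.20 ± 1.46 CPM in collagen I (SD, n = 5 each).

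The 3 Dishevelled genes averaged 18.5 CPM per kb (Dvl1) to 28.1 CPM per kb (Dvl3) over all libraries. Dvl3, a Dishevelled protein that passes the signal from Frizzled, stood at 102, 125, 125, 138 and 103 CPM in the laminin-rich libraries, against 122, 123, 105, 87.5 and 86.6 CPM in the collagen I libraries. The groups overlapped (log2 difference 0.18, SE 0.13, adjusted p = 0.644 in edgeR). Dvl1 averaged 95.2 ± 9.33 CPM in the laminin-rich matrix and 81.0 ± 11.6 CPM in collagen I, while Dvl2 averaged 98.6 ± 9.47 CPM in the laminin-rich matrix and 94.1 ± 11.1 CPM in collagen I (SD, n = 5 each). Exons of Dvl1 and Dvl2 overlap Tas1r3 and Acadvl on the opposite strand.

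In the destruction complex, Gsk3a, a kinase that phosphorylates beta-catenin, was highest per kb. It stood at 146, 152, 127, 136 and 167 CPM in the laminin-rich libraries, against 113, 115, 149, 186 and 161 CPM in the collagen I libraries, and the groups overlapped. The log2 difference was 0.01 (SE 0.14, 95% interval -0.31 to 0.32, adjusted p = 0.990 in edgeR), and exons of Gsk3a overlap 9130221H12Rik on the opposite strand. Axin1, the scaffold present in most cells, averaged 141 ± 8.05 CPM in the laminin-rich matrix and 133 ± 12.3 CPM in collagen I (SD, n = 5 each). Gsk3b averaged 255 ± 33.7 CPM in the laminin-rich matrix and 244 ± 78.3 CPM in collagen I (SD, n = 5 each). Apc, the tumour suppressor scaffold, averaged 116 ± 27.2 CPM in the laminin-rich matrix and 87.0 ± 44.5 CPM in collagen I (SD, n = 5 each). With 1 surrogate variable in the edgeR fit, Apc alone of the members passed (0.28, adjusted p = 0.0478), where 3.96% of all genes did.

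Of the factors that bind beta-catenin on DNA, Tcf7l2 was highest per kb, at 73.8, 73.2, 68.3, 86.3 and 73.0 CPM in the laminin-rich libraries, against 72.7, 75.0, 64.9, 70.4 and 67.9 CPM in the collagen I libraries. The groups overlapped (log2 difference 0.10, SE 0.10, adjusted p = 0.757 in edgeR). Tcf7l1, mainly a repressor, averaged 36.2 ± 4.26 CPM in the laminin-rich matrix and 38.4 ± 4.30 CPM in collagen I (SD, n = 5 each). Tcf7 averaged 22.4 ± 3.69 CPM in the laminin-rich matrix and 26.2 ± 2.17 CPM in collagen I (SD, n = 5 each). Lef1, itself a canonical target, was below the filter, with 3, 12, 12, 9 and 6 counts in the laminin-rich libraries and 2, 4, 7, 2 and 0 counts in the collagen I libraries. In CPM, laminin-rich replicate 1 lay within the collagen I range and the other 4 above it. Without the filter, Lef1 gave a log2 difference of 1.56 in edgeR (unadjusted p = 0.0149, adjusted p = 0.350), opposite in sign to Lgr5 and Axin2. Its exons overlap Gm43352 on the opposite strand, as those of Tcf7l1 do with Gm15401.

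The secreted and Naked cuticle inhibitors among the members were nearly undetected. Dkk1, Sfrp1 and Sfrp2, secreted blockers of LRP or of the ligand, had no count in any library. Dkk2 had at most 2 counts, and Dkk3, Wif1, Nkd1 and Nkd2 at most 1. This does not extend to extracellular modulators outside the members, of which Apcdd1, Notum and Kremen1 passed the filter. Apcdd1 averaged 14.6 ± 1.85 CPM in the laminin-rich matrix and 14.8 ± 3.23 CPM in collagen I (SD, n = 5 each). Notum averaged 3.46 ± 1.87 CPM in the laminin-rich matrix and 4.14 ± 1.55 CPM in collagen I (SD, n = 5 each). In edgeR without the filter, 48 members had a count, 0 were called and 6 had an unadjusted p under 0.05, against 0.201% and 10.7% of all genes. The 6 were the 4 named above, Lef1, and Dkk2 with 4 counts in all, none of them in the laminin-rich matrix.

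Outside the members, 95 further pathway genes were listed and 62 were tested. None passed in edgeR at an adjusted p of 0.05, and 11 had an unadjusted p under 0.05, 10 higher and 1 lower, which is 17.7% against 11.7% of all genes. DESeq2 called 4 of the 62, where it called 1.94% of all genes. The median log2 difference was 0.13, with 39 genes above 0 and 23 below. Ctnnb1, which encodes beta-catenin, averaged 773 ± 64.3 CPM in the laminin-rich matrix and 677 ± 95.4 CPM in collagen I (SD, n = 5 each; adjusted p = 0.546 in edgeR), and its exons overlap those of Ulk4 on the opposite strand. Among 17 tested genes widely used as beta-catenin targets, Fosl1, an AP-1 subunit, gave -0.78 (SE 0.17, adjusted p = 0.0995 in edgeR and 0.00302 in DESeq2), with 39.8 ± 9.40 CPM in the laminin-rich matrix and 68.2 ± 11.8 CPM in collagen I (SD, n = 5 each). Ephb3, a receptor that positions crypt cells, gave 0.59 (SE 0.14, adjusted p = 0.109 in edgeR and 0.00918 in DESeq2), with 64.9 ± 11.1 CPM in the laminin-rich matrix and 43.3 ± 5.04 CPM in collagen I (SD, n = 5 each). For both, the libraries of the matrices did not overlap, as in 6.45% of the 62 genes (4) and 3.23% of all genes, and they pointed in opposite directions. Cdx2, an intestinal transcription factor, gave 0.62 (SE 0.28, adjusted p = 0.419 in edgeR).

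In the other lists, Tspan12, a Frizzled partner in norrin signalling, gave 0.67 (adjusted p = 0.140 in edgeR and 0.0201 in DESeq2). Sulf2, an enzyme that trims heparan sulfate, gave 0.48 (adjusted p = 0.212 in edgeR), and Atp6ap2, the prorenin receptor, gave 0.32 (adjusted p = 0.254 in edgeR). All 3 belong to the 8 tested extracellular modulators. Of 12 tested planar polarity genes, Scrib gave 0.33 (adjusted p = 0.225 in edgeR and 0.0433 in DESeq2), Celsr2 0.57 and Celsr1 0.34 (adjusted p = 0.306 and 0.344 in edgeR). Of 25 tested regulators of beta-catenin, Tle3, a corepressor of TCF, gave 0.49 and Bcl9l, a coactivator, 0.31 (adjusted p = 0.264 and 0.277 in edgeR). When corrected for length and GC content, Scrib was at 0.12 (adjusted p = 0.448 in edgeR), Celsr2 at 0.24, Celsr1 at -0.01, Tle3 at 0.24 and Bcl9l at 0.04. The same correction left Tspan12 at 0.77 and Fosl1 at -0.77, each then called (adjusted p = 0.0192 and 0.0139 in edgeR), as was Atp6ap2 at 0.43 (0.0164). Exons of Fosl1, Tspan12, Sulf2 and Bcl9l overlap genes on the opposite strand.

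The libraries carry a code letter whose meaning is not stated, E or F in the laminin-rich matrix and B or D in collagen I. No letter is found in both matrices, so what the letter stands for and the effect of the matrix cannot be told apart. Within collagen I, Apc, Lrp6 and Fzd4 were lower in the D libraries than in the B libraries in edgeR, and none of the 31 members was higher. The background was 10.4% of 10789 genes lower and 5.42% higher. Apc stood at 40.9 and 52.3 CPM in D, against 130, 137 and 73.9 CPM in B (log2 difference D minus B -1.28, SE 0.29, adjusted p = 0.0277 in edgeR). Lrp6 stood at 123 and 150 CPM in D, against 305, 281 and 184 CPM in B (-0.91, SE 0.22, adjusted p = 0.0285). Fzd4 stood at 3.66 and 4.81 CPM in D, against 12.7, 13.6 and 6.20 CPM in B (-1.32, SE 0.35, adjusted p = 0.0339). In each gene, collagen I replicate 3 lay between the D libraries and the other B libraries.

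These 3 genes have long transcripts, 12811 nt for Apc, 9368 nt for Lrp6 and 6720 nt for Fzd4, against a median of 4197 nt over the tested members. Lrp5 (8893 nt), Gsk3b (8303 nt) and Fzd5 (6915 nt) have longer transcripts than Fzd4 and were not called. Their D minus B differences were -0.03, -0.59 and -0.73 (adjusted p = 0.924, 0.0805 and 0.0519 in edgeR). The slope of log2 CPM per doubling of transcript length ran from -0.12 to 0.16 in laminin-rich and from -0.37 to 0.18 in collagen I libraries. Across the 31 members, the D minus B difference and transcript length gave a Spearman rho of -0.66, and -0.65 across all genes, as a description of these libraries. With length and GC content corrected for in each library, Apc gave -0.46 (adjusted p = 0.0411 in edgeR), Fzd4 -0.77 (0.120) and Lrp6 -0.19 (0.261). Without collagen I replicate 1 or 2, edgeR called 0 members and 0 of all genes, against 1708 genes with all libraries. The loss of these calls is thus not particular to the members. Without collagen I replicate 1, 2, 4 or 5, the differences stayed at -1.11 to -1.47 for Apc, -1.12 to -1.54 for Fzd4 and -0.75 to -1.06 for Lrp6. Without laminin-rich replicate 2, 358 of all genes passed, and Apc alone of the members. There, Fzd4 and Lrp6 had an adjusted p of 0.0535 and 0.0506 in edgeR. Leaving out collagen I replicate 4 or 5 puts a lone library under letter D, whose spread is then taken from the other letters.

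Set against the D libraries alone, with the B libraries left out, the laminin-rich matrix gave 6 called members of 33, where 18.9% of all genes were called in edgeR. Apc (1.29, adjusted p = 0.0204), Lrp6 (0.87, 0.0205), Fzd4 (1.04, 0.0288), Fzd5 (0.98, 0.0231) and Lgr4 (0.53, 0.0349) were higher than in D. Wnt10a (-1.15, 0.0356) was lower. This fit uses the same D values that were compared with B above, so its calls are not separate support for a matrix difference. D minus B was -0.73 for Fzd5, -0.33 for Lgr4 and 0.95 for Wnt10a, each opposite in sign to the difference here, as for Apc, Lrp6 and Fzd4. Within the laminin-rich matrix, F minus E gave 0 called members and 0 called genes in edgeR, with 4 members and 414 genes at an unadjusted p under 0.05. Lgr5 had the largest difference of the members there (2.33, adjusted p = 1.00 in edgeR), with 17.1 and 1.61 CPM in F, against 2.38, 1.27 and 2.08 CPM in E. The difference rested on laminin-rich replicate 4: without that library it was -0.27, and without laminin-rich replicate 5 it was 3.12. Each of these fits leaves a lone library under letter F, whose spread is then taken from the other letters.

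**Figure D5:**
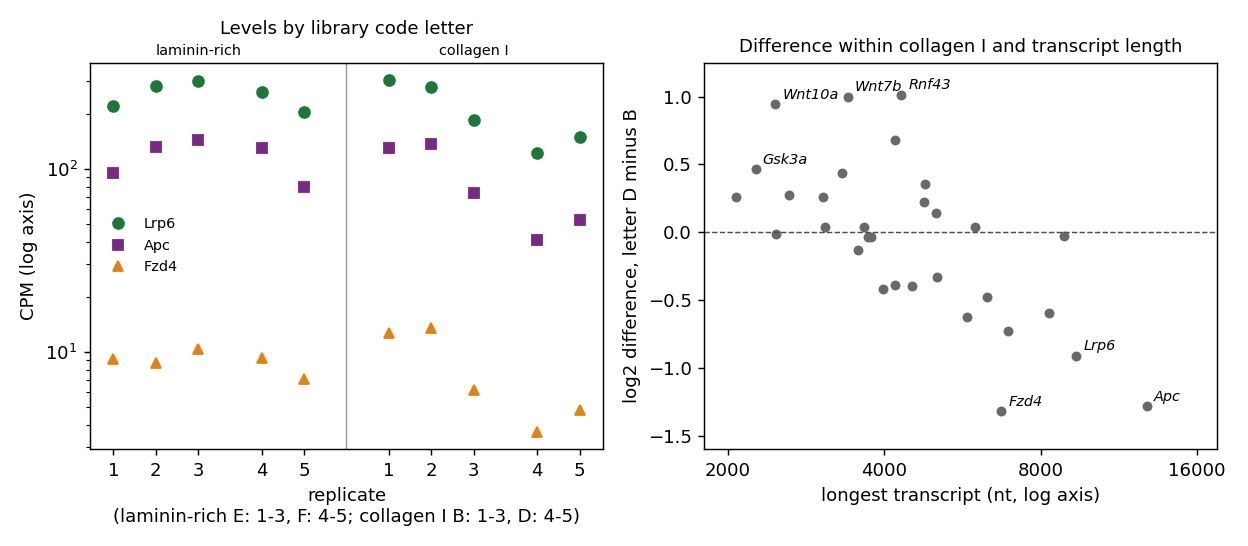
Left, CPM (log axis) of Lrp6, Apc and Fzd4 in each library, with laminin-rich replicates left of collagen I replicates and a gap between code letters. Right, the D minus B log2 difference within collagen I against the longest transcript (nt, log axis) for the 31 tested members, where Apc, Fzd4 and Lrp6 lie lowest at -1.28, -1.32 and -0.91.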

How the data were processed

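The authors deposited raw read counts in 1 table by gene symbol, whose columns were matched to the libraries by title and code. The submitters' processing notes name DESeq2 and the build GRCm38 (mm10). Aligner, counter, strand setting and annotation: not given in the sources used. Per the labels' protocols, libraries were stranded poly(A) mRNA from 30 ng of total RNA.

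The filterByExpr defaults kept 10789 of 18407 genes. After TMM scaling, the matrices were compared with edgeR 4.0.16 in R 4.3.3 by its quasi-likelihood F test, two-sided, with matrix as the only term. Benjamini-Hochberg adjustment ran over the 10789 genes, and calls were made at 0.05. Differences are laminin-rich minus collagen I. The standard error is the size of the log2 difference divided by the square root of F. CPM use TMM-scaled sizes, and levels between genes are per kb of the longest transcript in GENCODE M21 (GRCm38), which annotated all 59 members. Code letters were compared in a separate edgeR fit of 4 letter groups.

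The value in every library is given for members with an unadjusted p under 0.05, the highest member of each role per kb, and Axin2 and Lgr5. Members, lists and alternatives were chosen with earlier results of these data known. The alternatives were DESeq2 1.42.0, limma-voom 3.58.1, scaling by library size only or by DESeq2 size factors, leaving the filter out, or asking for 1 CPM in 5 libraries, a replicate block, each library or code letter left out, 1 surrogate variable (sva 3.50.0), and an offset for transcript length and GC content, a spline with 5 degrees of freedom fitted in each library. The offset takes out matrix effects that run with length or GC content too. The fit with no filter and a library left out was chosen after seeing the data. Library pairs all differed by more than sampling noise. The steps were tested on simulated counts.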

Additional observations from a re-analysis of the deposited data

Results flagged for a closer look

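The 31 tested members gave 62 groups of 5 libraries, and in 3 groups a single library stood far off. Chance alone marks about 5% of groups, or 3.1. Lgr5 stood at 4.12 log2 CPM in laminin-rich replicate 4, against 1.43 in the next laminin-rich library. Fzd7 stood at 6.57 log2 CPM in the same library, against 6.11 in the next. Wnt10a stood at 2.89 log2 CPM in laminin-rich replicate 2, against 4.18 in the next. The cause was not tested.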

How the results depend on the processing

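Of the 31 tested members, 17 kept the direction of their difference in all 23 alternatives and 14 did not, and 24 passed in none. The number of members called was 0, except 6 without the letter B libraries, 1 without letter F (Lgr5), 1 with a surrogate variable (Apc), and 0 to 1 without single libraries. Over all genes the count was 16, against 209 in DESeq2, 29 with no filter, 5 without letter D, 2083 without letter B, 5 without letter F, 1 without letter E, 102 with the length and GC offset, 427 with a surrogate variable and 0 to 64 without single libraries. Among the other pathway genes 4 were called by DESeq2, 15 without letter B, 3 with the offset and 5 with a surrogate variable.

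No pairing by replicate number was seen: the correlation of deviations between same-numbered libraries ran from -0.33 to 0.48, and with the replicate block edgeR called 0 genes. None of the 5 laminin-rich libraries correlated best with its own number. Trends with transcript length that differ between libraries enter these correlations, so the check cannot exclude a pairing.

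For letter D minus B, members called were 3, against 8 with no filter, 1 with the offset and 0 to 8 without single libraries, and genes called were 1708, against 436 with the offset and 0 to 3655. For F minus E, members called were 0 to 1 and genes 0 to 26 without single libraries, the highest without laminin-rich replicate 5, when laminin-rich replicate 4 alone carried letter F.

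Of the 23 alternatives, direction changed in 15 for Wnt6, 11 for Gsk3a, 9 for Wnt7b, 8 for Gsk3b and 6 for Fzd1. It changed in 4 for Fzd4 and Dvl2, 3 for Wnt4, and 2 for Fzd2, Fzd7 and Tcf7l1. For Lrp5, Lrp6 and Rnf43 it changed in 1. Fzd7 changed direction to 0.13 without letter B and 0.030 without letter E, and Lrp5 to -0.12 and Celsr1 to -0.014 with the offset. Gsk3a changed to -0.0045 in DESeq2 and with its size factors, -0.011 with library size only, -0.014 with the 1 CPM filter, -0.017 with no filter, -0.28 without letter B, -0.051 without letter F and -0.093 to 0.11 without single libraries. The cause was not tested. Members below about 10 counts per library, Axin2 and Lef1 among them, are limited by depth.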
